A study of Homo sapiens with 24 samples.

Results

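Autophagy is the process by which cells enclose cargo in a double membrane, the autophagosome, and deliver it to lysosomes for breakdown. The genes described here are 10 members of that machinery, chosen by name from the 14493 genes of the count table: the cargo receptors SQSTM1 and NBR1, the ATG8-family genes MAP1LC3B, GABARAPL1, and GABARAPL2, the initiation and nucleation genes ULK1 and BECN1, the membrane genes WIPI1 and ATG9A, and TFEB, a transcription factor of lysosomal and autophagy genes. All 10 were found in the table and all 10 passed the filter on low counts in every comparison.

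Expression was measured by RNA-seq in SKBR3, an established HER2-positive human breast cancer cell line, in 24 libraries that form 8 groups of 3. Of these groups, 6 were therapy-induced senescence (TIS) models collected on day 7. Their labels give a refeed on day 3, and the methods state that drug was refreshed every 3 days. ND-646, an inhibitor of acetyl-CoA carboxylase (ACC), and TVB-3166, an inhibitor of fatty acid synthase (FASN), were each used at 250 nmol/L, alisertib, an Aurora A kinase inhibitor, at 500 nmol/L, doxorubicin, a topoisomerase II poison, at 10 nmol/L, bleomycin, a DNA-breaking agent, at 10 μmol/L, and palbociclib, a CDK4/6 inhibitor, at 1 μmol/L. The other groups were untreated proliferative cells at day 0 and untreated cells at day 7, whose labels give no refeed. Each drug was given at a single dose, so drug and dose cannot be told apart, and nothing in the labels says that replicates came from separate cultures, so p-values measure the spread between these libraries only.

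Cargo receptors such as SQSTM1 (p62) and NBR1 bind ubiquitin-tagged cargo on one side and lipidated ATG8 proteins on the growing membrane on the other. ULK1 is the kinase that starts the process, BECN1 is a subunit of the lipid kinase complex that marks the site with phosphatidylinositol 3-phosphate, WIPI1 binds that lipid, and ATG9A moves in vesicles that seed the membrane. TFEB is held in the cytoplasm by mTORC1 phosphorylation and is known to act on its targets after entering the nucleus, which transcript levels do not measure. SQSTM1 and the ATG8 proteins are themselves degraded in lysosomes, so protein levels and autophagic flux are not measured here either.

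Total counts ranged from 29405121 to 44316330 per library, and the share taken by the 10 highest genes from 5.525% to 12.73%. The epithelial markers ERBB2, EPCAM, KRT8, KRT18, and KRT19 were high in all libraries, with ERBB2 between 5121 and 8827 CPM (counts scaled to the library total with TMM factors), while CDH1, the remaining marker of the list, has no row in the table. Of 6 markers of other cell types, PTPRC, PECAM1, COL1A2, and CD3E have no row, and COL1A1 lay between 6.43 and 15.2 CPM. CD68, a lysosomal membrane glycoprotein used as a macrophage marker, was higher in ND-646 (42.0 to 54.5 CPM), TVB-3166 (25.6 to 30.3 CPM), and bleomycin TIS cells (34.3 to 56.4 CPM) than in untreated day-0 cells (4.20 to 6.08 CPM). With doxorubicin and palbociclib, CD68 was called higher in 5 of 6 drugs against each untreated reference, and its part in the results was not tested. COL1A1 was called lower in bleomycin, doxorubicin, and palbociclib TIS cells against both references, so a summed level can hide a rise of CD68. The summed level of the other-cell markers ran from 16.3 to 19.0 CPM in untreated day-0 cells, from 49.97 to 63.6 CPM in ND-646, from 35.5 to 41.3 CPM in TVB-3166, from 42.6 to 65.9 CPM in bleomycin, and from 16.6 to 20.4 CPM over the libraries of the remaining 3 drugs. The summed epithelial markers ran from 16740 to 19870 CPM in untreated day-0 cells from 14030 to 16920 CPM in untreated day-7 cells, and from 9542 to 17110 CPM over the drug-treated libraries. All libraries of 5 drugs lay below the day-0 ones, and an ND-646 library overlapped with them. Of the 5 epithelial markers, 2 were called lower in ND-646 and 3 in each of the other 5 drugs against day-0 cells, 0 were called higher, and their part in the results was not tested.

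The start sites of the 3 genes that rose in all drug groups against both untreated references (SQSTM1, MAP1LC3B, and ULK1) and of GABARAPL1, whose order of levels was different, are shown because TFEB is known to bind the letters CACGTG in promoters of its targets. Each window holds 250 bases before and 50 after a RefSeq start site (GRCh38.p14, given 5′ to 3′), and SQSTM1 is represented by the last of its 3 windows. Capitals mark matches, on either strand, to TGACNNNGC, the core of the antioxidant response element bound by NRF2, or to TGACGTCA, the cyclic AMP response element.
SQSTM1 (chr5:179820655-179820954, plus strand): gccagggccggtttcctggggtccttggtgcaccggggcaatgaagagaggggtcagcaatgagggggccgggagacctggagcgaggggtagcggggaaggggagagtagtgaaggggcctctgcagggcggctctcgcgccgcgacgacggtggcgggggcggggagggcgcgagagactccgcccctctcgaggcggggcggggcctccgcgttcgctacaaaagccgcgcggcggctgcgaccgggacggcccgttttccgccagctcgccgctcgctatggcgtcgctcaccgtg
MAP1LC3B (chr16:87392086-87392385, plus strand): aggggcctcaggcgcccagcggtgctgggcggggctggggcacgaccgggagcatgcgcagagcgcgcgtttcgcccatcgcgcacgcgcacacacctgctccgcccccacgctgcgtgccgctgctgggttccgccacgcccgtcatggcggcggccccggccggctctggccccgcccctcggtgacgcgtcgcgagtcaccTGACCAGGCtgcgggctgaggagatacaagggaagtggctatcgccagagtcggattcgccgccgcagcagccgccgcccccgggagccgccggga
ULK1 (chr12:131894372-131894671, plus strand): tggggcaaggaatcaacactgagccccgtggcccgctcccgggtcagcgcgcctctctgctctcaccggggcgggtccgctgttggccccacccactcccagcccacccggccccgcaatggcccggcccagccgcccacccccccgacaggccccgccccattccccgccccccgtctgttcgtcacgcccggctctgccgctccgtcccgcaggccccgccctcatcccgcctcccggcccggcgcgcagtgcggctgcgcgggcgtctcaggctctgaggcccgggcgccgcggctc
GABARAPL1 (chr12:10212627-10212926, plus strand): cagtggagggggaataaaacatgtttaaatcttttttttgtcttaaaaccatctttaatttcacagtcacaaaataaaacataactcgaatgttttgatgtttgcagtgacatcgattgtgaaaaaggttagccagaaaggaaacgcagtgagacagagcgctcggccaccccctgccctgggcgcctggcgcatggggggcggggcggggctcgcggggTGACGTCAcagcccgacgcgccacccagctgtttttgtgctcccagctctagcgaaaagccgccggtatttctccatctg

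CACGTG was found in 0 of the 15 windows of the 10 members and in 7.26% of 35116 RefSeq windows of the same length. TGACNNNGC matched in MAP1LC3B, 46 bases before the start site, and in 13.3% of all windows. TGACGTCA matched in GABARAPL1, 30 bases before the start site, and in 1.85% of all windows, while TGATGNAA, letters bound by ATF4 with CEBP partners, matched in 0 member windows and in 3.62% of all. TGACGTCA and TGATGNAA were added to the search after the sequences had been read. These matches describe letters within 300 bases only, and sites farther away or inside introns were not searched.

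The members were next compared for abundance, per kilobase of summed exons. In untreated day-0 cells SQSTM1 was the highest at 46.8 ± 3.38 CPM per kilobase (SD, n = 3), followed by ATG9A at 24 ± 3.74 CPM per kilobase and WIPI1 at 14.6 ± 1.40 CPM per kilobase. TFEB was the lowest at 2.40 ± 0.260 CPM per kilobase, and GABARAPL1 was the next lowest at 4.47 ± 1.33 CPM per kilobase. In ND-646 TIS cells SQSTM1 and TFEB kept the first and the last rank, at 197 ± 41.9 and 1.51 ± 0.299 CPM per kilobase. MAP1LC3B went from rank 4 in untreated day-0 cells to rank 2 in ND-646 TIS cells, where it was at 45.3 ± 13.6 CPM per kilobase. With the longest transcript in place of summed exons, NBR1 and GABARAPL2 exchanged ranks 5 and 6 in untreated day-0 cells and the other 8 members kept theirs.

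**Figure D1:**
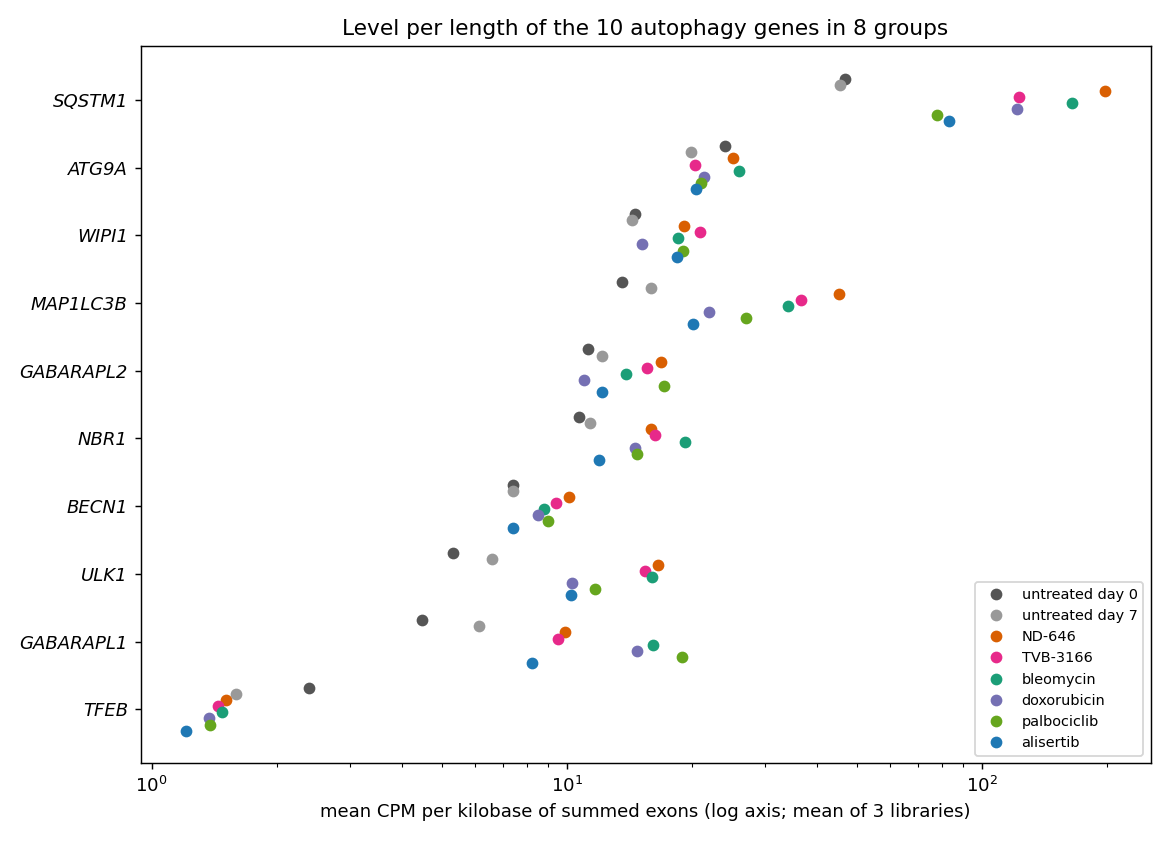
Mean CPM per kilobase of summed exons (log axis, mean of 3 libraries) of the 10 members, with 1 colour per group. SQSTM1 is the highest and TFEB the lowest in untreated day-0 and ND-646 TIS cells, and the 8 groups spread widely for SQSTM1, MAP1LC3B, ULK1, and GABARAPL1 and little for ATG9A.

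The next question was which members differed between each TIS group and untreated day-0 cells. A member is called higher or lower at an adjusted p under 0.05 in edgeR's quasi-likelihood test over all genes. In ND-646 TIS cells 7 of 10 members were higher and 1 was lower, where 19.1% of all genes tested were higher and 18.8% lower. In TVB-3166 TIS cells 8 were higher and 1 lower, against 27.4% and 27.7% of all genes. The count was 6 higher and 1 lower in bleomycin TIS cells (24.1% and 25.3% of all genes), 5 and 1 with alisertib (17.7% and 19.6%), 5 and 1 with doxorubicin (23.7% and 24.8%), and 8 and 1 with palbociclib (26% and 27.2%). The single lower member was TFEB in each group. At a fold-change of at least 2 with a raw p under 0.05, 4 members were higher in ND-646 (11.4% of all genes), TVB-3166 (10.9%), and bleomycin TIS cells (11.5%), 2 in doxorubicin (10%) and palbociclib (10.5%), and 0 in alisertib (6.47%). The median log2 fold-change of the 10 members in ND-646 TIS cells was 0.57, beside 0.02 over all genes tested. Because the samples are bulk RNA, fewer cells with a transcript and less of it per cell cannot be told apart.

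SQSTM1 (chr5:179233398-179265078, GRCh37, plus strand) encodes p62, a receptor for ubiquitinated cargo. It measured 375, 358, and 325 CPM in the untreated day-0 libraries and 334, 365, and 331 CPM in the untreated day-7 libraries. It was at 1849.8, 1277, and 1332 CPM in ND-646, at 1079, 1443, and 1195 CPM in bleomycin, and at 930.2, 919.7, and 928.7 CPM in TVB-3166 TIS cells. Doxorubicin libraries were at 951, 900.3, and 898 CPM, alisertib libraries at 606, 655, and 620.5 CPM, and palbociclib libraries at 552, 651, and 559 CPM. All 18 drug-treated libraries lay above all 6 untreated ones. Against untreated day-0 cells the log2 fold-change was 2.07 ± 0.20 (SE, n = 3 against 3) in ND-646 (4.20-fold, adjusted p = 0.000114), 1.82 ± 0.14 in bleomycin, 1.40 ± 0.10 in TVB-3166, 1.39 ± 0.10 in doxorubicin, 0.83 ± 0.09 in alisertib, and 0.74 ± 0.10 in palbociclib TIS cells, with adjusted p-values of at most 0.000251. In the order of levels the libraries of ND-646 and bleomycin overlapped, as did those of TVB-3166 and doxorubicin, those of alisertib and palbociclib, and those of both untreated groups, while these pairs were separate from one another. ND-646 replicate 1 was the highest library, and without it the log2 fold-change was 1.89 (adjusted p = 2.6e-06). The exons of SQSTM1 overlap those of MRNIP and MGAT4B on the opposite strand, which carried from 0.0827% to 1.03% and from 18.5% to 46.1% as many counts as SQSTM1, and whether strand was used in counting is not given in the sources used here.

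NBR1 (chr17:41322498-41363708, plus strand), the second ubiquitin-binding receptor, moved less. Its levels were 92.2, 91.8, and 86.4 CPM in untreated day-0 cells, 135, 136, and 132 CPM in ND-646, 141, 139, and 132 CPM in TVB-3166, and 157, 179, and 149 CPM in bleomycin TIS cells. The bleomycin libraries were above all others. The log2 fold-change against untreated day-0 cells was 0.85 ± 0.11 in bleomycin (adjusted p = 0.000241), 0.61 ± 0.09 in TVB-3166, 0.57 ± 0.12 in ND-646, and 0.45 to 0.46 in doxorubicin and palbociclib TIS cells. In alisertib it was 0.15 ± 0.08 and missed the threshold (adjusted p = 0.16), with a 95% interval from -0.03 to 0.34.

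MAP1LC3B (chr16:87417559-87438385, plus strand) encodes LC3B, the ATG8 protein most used as a marker of autophagosomes. It was at 61.3, 69.6, and 73.8 CPM in untreated day-0 cells and at 73.3, 91.1, and 77.3 CPM in untreated day-7 cells. It reached 307, 196, and 183 CPM in ND-646, 193, 195, and 167 CPM in TVB-3166, and 154, 203, and 158 CPM in bleomycin TIS cells. Palbociclib libraries were at 128, 162, and 118 CPM, doxorubicin libraries at 113, 120.4, and 99.97 CPM, and alisertib libraries at 102, 113, and 88.8 CPM. Neighbours overlapped at each step of this order, from ND-646 down to untreated day-0 cells, while no drug-treated library fell as low as the untreated day-0 ones. The log2 fold-change against untreated day-0 cells was 1.73 ± 0.21 in ND-646 (3.33-fold, adjusted p = 4e-04), 1.44 ± 0.11 in TVB-3166, 1.34 ± 0.14 in bleomycin, 0.57 ± 0.11 in alisertib, 0.71 ± 0.10 in doxorubicin, and 0.99 ± 0.12 in palbociclib TIS cells, and all 6 passed the test. Without ND-646 replicate 1 the ND-646 value was 1.47 (adjusted p = 6.77e-06). The near-identical intronless copy MAP1LC3B2 had between 0.180 and 0.569 CPM as group means, and how reads shared by both were assigned is not given in the sources used here. On the opposite strand, exons of FBXO31 overlap those of MAP1LC3B, over 60 bases at the longest, and FBXO31 carried from 11% to 65% as many counts.

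GABARAPL1 (chr12:10365057-10375727, plus strand), an ATG8 gene of the GABARAP branch, followed another order. Untreated day-0 libraries were at 11.9, 21.2, and 21.3 CPM and untreated day-7 libraries at 18.6, 28.4, and 27.8 CPM. Palbociclib TIS cells were highest at 74.2, 80.8, and 75.1 CPM, followed by bleomycin at 58.0, 64.3, and 73.3 CPM and doxorubicin at 59.0, 58.4, and 62.4 CPM. ND-646 libraries were at 41.4, 37.5, and 41.5 CPM, TVB-3166 libraries at 39.1, 37.4, and 39.5 CPM, and alisertib libraries at 28.7, 36.3, and 35.3 CPM. The palbociclib libraries overlapped with no other group, bleomycin overlapped with doxorubicin, and ND-646 overlapped with TVB-3166. The log2 fold-change against untreated day-0 cells was 2.08 ± 0.19 in palbociclib (4.24-fold, adjusted p = 1.39e-05), 1.85 ± 0.21 in bleomycin, 1.74 ± 0.19 in doxorubicin, 1.14 ± 0.23 in ND-646, 1.10 ± 0.19 in TVB-3166, and 0.88 ± 0.20 in alisertib TIS cells, and all 6 passed. Replicate 1 of untreated day-0 cells was the lowest library of the gene.

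GABARAPL2 (chr16:75600273-75611779, plus strand), of the same branch, spanned a narrow range. Its mean was 33.8 ± 1.40 CPM in untreated day-0 cells (SD, n = 3), 51.5 ± 5.56 CPM in palbociclib, 50.8 ± 11.1 CPM in ND-646, and 46.9 ± 1.61 CPM in TVB-3166 TIS cells. The log2 fold-change was 0.61 ± 0.10 in palbociclib, 0.58 ± 0.17 in ND-646, and 0.48 ± 0.09 in TVB-3166, each past the threshold. It was 0.32 in bleomycin (adjusted p = 0.0523), 0.11 in alisertib, and -0.02 in doxorubicin, none of which passed. With ND-646 replicate 1 left out the ND-646 value was 0.39 (adjusted p = 0.0115), and with any single untreated day-0 library left out that call was lost.

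ULK1 (chr12:132379167-132407695, plus strand), the initiating kinase, was at 38.4, 41.1, and 41.9 CPM in untreated day-0 cells and at 49.7, 51.0, and 49.9 CPM in untreated day-7 cells. It was at 142, 103, and 136 CPM in ND-646, at 113, 138, and 116 CPM in bleomycin, and at 125, 109, and 119 CPM in TVB-3166 TIS cells. These 3 groups overlapped with one another and were separate from palbociclib (87, 87.7, and 92.1 CPM), doxorubicin (87.5, 70.0, and 77.3 CPM), and alisertib (80.8, 73.6, and 79.1 CPM), which in turn were separate from both untreated groups. The log2 fold-change against untreated day-0 cells was 1.64 ± 0.16 in ND-646 (3.12-fold, adjusted p = 0.000123), 1.60 ± 0.11 in bleomycin, 1.55 ± 0.10 in TVB-3166, 0.94 ± 0.09 in alisertib, 0.96 ± 0.10 in doxorubicin, and 1.14 ± 0.09 in palbociclib TIS cells, and all 6 passed.

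BECN1 (chr17:40962152-40985367, minus strand) encodes Beclin 1. It measured 46.2, 48.9, and 47.4 CPM in untreated day-0 cells, 69.0, 64.0, and 61.8 CPM in ND-646, and 58.2, 64.8, and 58.1 CPM in TVB-3166 TIS cells. The ND-646 and TVB-3166 libraries lay above all untreated ones. It rose in ND-646 (log2 fold-change 0.45 ± 0.13, adjusted p = 0.0256), TVB-3166 (0.35 ± 0.09, adjusted p = 0.00661), and palbociclib TIS cells (0.28 ± 0.09, adjusted p = 0.0168, and 0.0681 without palbociclib replicate 2). The values of 0.26 in bleomycin, 0.22 in doxorubicin, and 0.00 in alisertib did not pass. The ND-646 call was lost when any of 5 of the 6 libraries was left out (adjusted p up to 0.0887). On the opposite strand, exons of PSME3 overlap those of BECN1 and carried from 122% to 334% as many counts.

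WIPI1 (chr17:66417089-66453654, minus strand), which reads the lipid made by the BECN1 complex, was at 44.1, 52.8, and 51.7 CPM in untreated day-0 cells and at 71.2, 70.8, and 71.5 CPM in TVB-3166 TIS cells. It rose in TVB-3166 (log2 fold-change 0.53 ± 0.10, adjusted p = 0.000813), palbociclib (0.39 ± 0.12), bleomycin (0.35 ± 0.13), and alisertib TIS cells (0.34 ± 0.10). In ND-646 libraries, at 74.8, 57.3, and 63.5 CPM, the value of 0.39 ± 0.15 missed the threshold (adjusted p = 0.0766). They did not overlap with the untreated day-0 ones, which also held for 51.7% of all genes. Doxorubicin libraries overlapped with the untreated ones (log2 fold-change 0.07, adjusted p = 0.594). The bleomycin call was lost when any untreated day-0 library or bleomycin replicate 2 was left out (adjusted p up to 0.145). The alisertib call was lost without alisertib replicate 1 or 2 (adjusted p up to 0.0946), and the palbociclib call without palbociclib replicate 1 or 2 (adjusted p up to 0.0839). On the opposite strand, exons of ARSG overlap those of WIPI1, over 829 bases at the longest, and ARSG carried from 7.85% to 23.3% as many counts.

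ATG9A (chr2:220084102-220094439, minus strand), a lipid scramblase carried in Golgi-derived vesicles, was called in 0 of the 6 drugs against untreated day-0 cells by edgeR, 0 of these values had a raw p under 0.05, and DESeq2 called 0. Its group means ran from 93.9 ± 5.6 CPM in untreated day-7 cells to 123 ± 8.52 CPM in bleomycin TIS cells (SD, n = 3), and neighbours in that order overlapped throughout. The log2 fold-changes ran from -0.23 in TVB-3166, with a 95% interval from -0.48 to 0.02, to 0.12 in bleomycin, with an interval from -0.15 to 0.40. Untreated day-0 replicate 1, at 134 CPM, stood above the other two at 102 and 104 CPM. Exons of ATG9A overlap a second gene model on the same strand over 1073 bases.

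TFEB (chr6:41651716-41703997, minus strand) was the one member lower in the drug groups. It measured 14.8, 18.1, and 15.4 CPM in untreated day-0 cells. The untreated day-7 libraries were at 11.2, 10.7, and 10.4 CPM, ND-646 at 12.5, 8.97, and 8.98 CPM, TVB-3166 at 9.83, 9.33, and 9.95 CPM, and alisertib at 9.08, 7.68, and 7.69 CPM. The untreated day-0 libraries lay above all 21 others, and the 7 remaining groups overlapped from one neighbour to the next. The log2 fold-change against untreated day-0 cells was -0.68 ± 0.19 in ND-646 (adjusted p = 0.0226), -0.72 ± 0.13 in TVB-3166, -0.70 ± 0.15 in bleomycin, -0.99 ± 0.13 in alisertib, -0.79 ± 0.14 in doxorubicin, and -0.79 ± 0.15 in palbociclib TIS cells, all past the threshold. In untreated day-7 cells, which had no drug, it was -0.57 ± 0.13 (adjusted p = 0.0656), and with the replicate number as a block this value was -0.57 (adjusted p = 0.0233). The ND-646 call was lost in 4 of 6 fits that left out 1 library (adjusted p up to 0.0968), although without ND-646 replicate 1 the value was -0.84 (adjusted p = 0.00143).

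Which of these differences were also present against untreated cells of the same age was asked with the untreated day-7 cells as reference. The labels give a refeed for the drug groups but none for these cells, so drug and refeeding cannot be told apart here. Between untreated day-7 and day-0 cells, edgeR called 0 of 10 members and 0.587% of all genes tested. In that test 3 members had a raw p under 0.05 (TFEB, ULK1, and ATG9A), and the share of all genes at that raw p is not given here. DESeq2 called 2 members (TFEB and ULK1) and 8.3% of all genes. With the replicate block 2 were called, TFEB and GABARAPL1 (log2 fold-change 0.49, adjusted p = 0.0233), and 9.26% of all genes. ULK1 was at 0.32 ± 0.09 (adjusted p = 0.0918), and its libraries of both days did not overlap, which also held for 29.6% of all genes.

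Against untreated day-7 cells, 7 members were higher and 0 lower in ND-646 TIS cells, where 17.2% of all genes were higher and 17.1% lower. The counts were 8 and 0 in TVB-3166 (25.4% and 26.1% of all genes), 7 and 0 in bleomycin (22.4% and 23.2%), 4 and 1 with alisertib (9.55% and 9.49%), 5 and 0 with doxorubicin (21.9% and 21.5%), and 8 and 0 with palbociclib (22% and 22.9%). These fits had no replicate block. With it, 5 members were called in ND-646 (4710 of 13704 genes) and 8 in bleomycin (6702 of 13802), all of them higher. With alisertib 5 were higher and 1 lower (4141 of 13795 genes called), and with doxorubicin 6 were higher (6520 of 13850). SQSTM1, MAP1LC3B, and ULK1 were higher in 6 of 6 drugs against this reference too. SQSTM1 ranged from 0.79 in palbociclib to 2.11 in ND-646 on the log2 scale, ULK1 from 0.65 in alisertib to 1.33 in ND-646, and MAP1LC3B from 0.35 in alisertib to 1.5 in ND-646. The alisertib value of MAP1LC3B was the weakest of these (adjusted p = 0.0431), its libraries overlapped with the untreated ones, and the call was lost in 4 of 6 fits that left out 1 library (adjusted p up to 0.159).

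GABARAPL1 was higher in 5 of 6 drugs against untreated day-7 cells, with 1.64 ± 0.14 in palbociclib and 0.64 ± 0.14 in TVB-3166 on the log2 scale, and 0.44 ± 0.15 in alisertib (adjusted p = 0.0669, and 0.00176 with the replicate block). NBR1 was higher in 5 of 6, all but alisertib. WIPI1 was higher in 5 of 6, all but doxorubicin (0.11, adjusted p = 0.34). BECN1 was higher in ND-646, TVB-3166, and palbociclib TIS cells, and GABARAPL2 in TVB-3166 and palbociclib, with ND-646 at 0.47 (adjusted p = 0.0589). ATG9A was called higher in bleomycin TIS cells (0.41 ± 0.09, adjusted p = 0.00579). Its ND-646 value of 0.34 (95% interval from 0.03 to 0.65) missed the threshold (adjusted p = 0.0878), and it passed in the fit of all 24 libraries (adjusted p = 0.00884). The ND-646 libraries did not overlap with the untreated day-7 ones, which also held for 50.8% of all genes. TFEB, lower in 6 of 6 drugs against day-0 cells, was lower in 1 of 6 against day-7 cells: the alisertib value was -0.39 ± 0.12 (adjusted p = 0.0482) and was lost in 5 of 6 fits that left out 1 library (adjusted p up to 0.164), and the other 5 values ran from -0.20 to -0.09. In ND-646 against day-7 cells the replicate block ended the calls of BECN1 (adjusted p = 0.0571) and WIPI1 (adjusted p = 0.0751), while BECN1 passed with the block in bleomycin (adjusted p = 0.0473) and doxorubicin (adjusted p = 0.0444). Leaving out 1 library ended the ND-646 calls of BECN1 (adjusted p up to 0.148) and WIPI1 (up to 0.164) in 5 of 6 fits each. The ND-646 call of NBR1 was lost in 3 of 6 such fits (up to 0.0977) and that of GABARAPL1 in 2 of 6 (up to 0.0535). Leaving out 1 library also ended the BECN1 calls in TVB-3166 in 2 of 6 fits (up to 0.0698) and in palbociclib in 4 of 6 (up to 0.0989). WIPI1 calls were lost in bleomycin in 3 of 6 (up to 0.0722) and in alisertib in 1 of 6 (0.0528). Both references were used with the same drug-treated libraries, so these sets of values are not independent of each other.

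**Figure D2:**
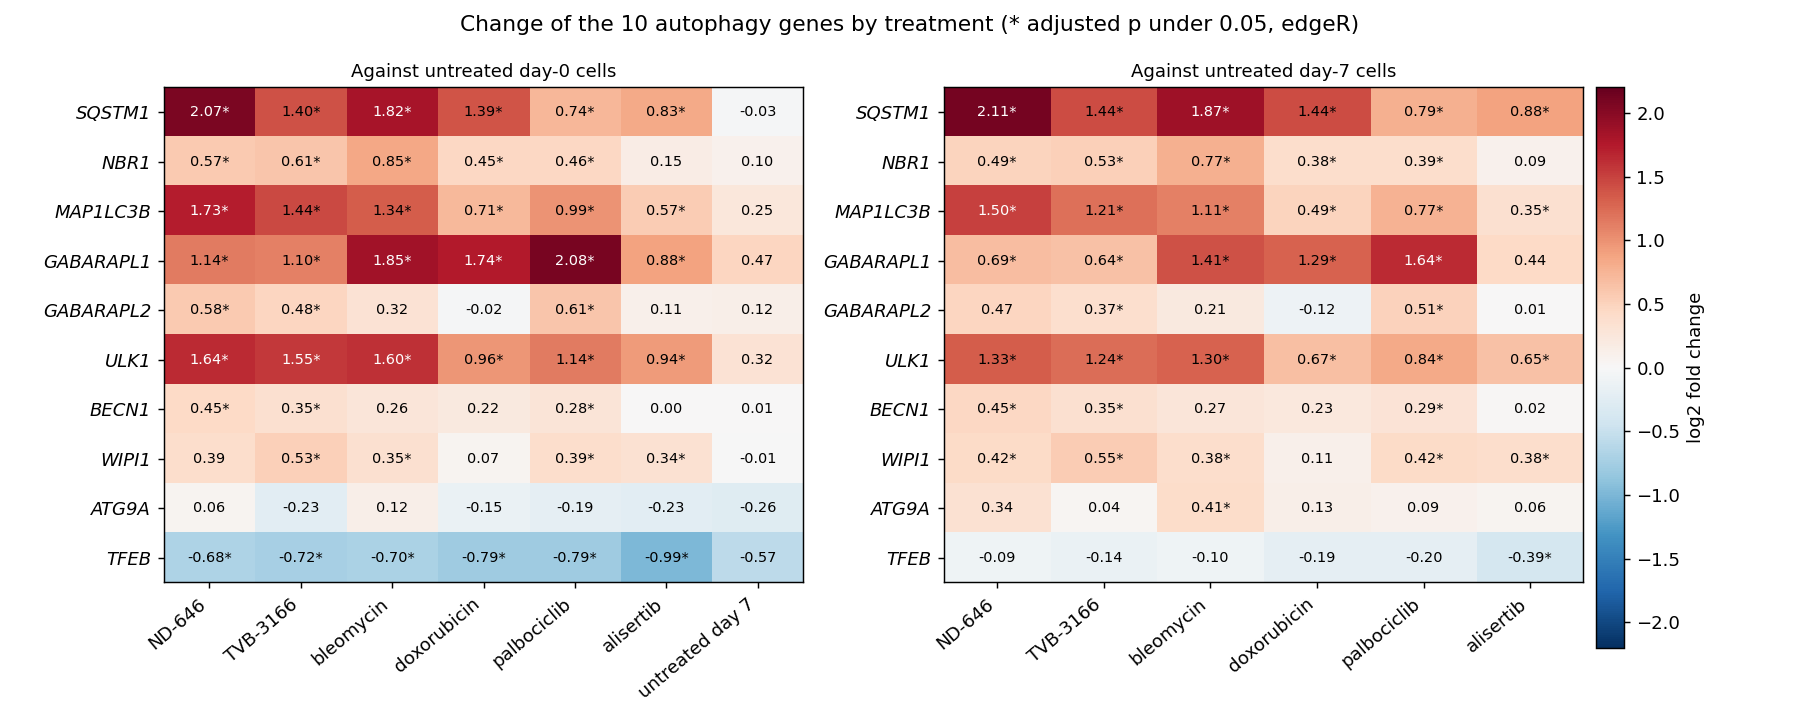
Log2 fold-changes of the 10 members (rows) in each drug group and in untreated day-7 cells, against untreated day-0 cells on the left and untreated day-7 cells on the right, with asterisks for an adjusted p under 0.05 in edgeR's test. The TFEB row holds 6 asterisks on the left and 1 on the right, while SQSTM1, MAP1LC3B, and ULK1 hold 6 on each side.

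Whether ACC and FASN inhibition gave different levels was asked next. In TVB-3166 against ND-646 TIS cells edgeR called 0 of 10 members and 0.717% of all genes tested. In that test 2 members had a raw p under 0.05 (SQSTM1 and ATG9A), and the share of all genes at that raw p is not given here. DESeq2 called 1 member (SQSTM1) and 5.6% of all genes. With the replicate block 0 members were called, and 310 of 13662 genes tested. SQSTM1 was lower in TVB-3166 in all 3 libraries, at 926 ± 5.70 CPM against 1486 ± 316 CPM (SD, n = 3 each), with a log2 difference of -0.68 (95% interval from -1.07 to -0.28, adjusted p = 0.119). Libraries of both drugs were likewise separate for 24.2% of all genes. Without ND-646 replicate 1 that difference was -0.49 (adjusted p = 0.00481). For ULK1 the interval ran from -0.44 to 0.24, for GABARAPL1 from -0.31 to 0.21, and for NBR1 from -0.20 to 0.27. The interval of MAP1LC3B, from -0.77 to 0.17, leaves room for a larger difference.

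The lipogenesis inhibitors were then set against the other 4 drugs, each drug with equal weight. Of the members, 6 were higher, 1 was lower, and 3 were not called, where 26.1% of all genes tested were higher and 24% lower. MAP1LC3B was higher by 0.70 ± 0.11 on the log2 scale (adjusted p = 3.9e-05), SQSTM1 by 0.56 ± 0.08 (adjusted p = 3.02e-05), and ULK1 by 0.45 ± 0.07 (adjusted p = 7.6e-05). GABARAPL2 was higher by 0.29 ± 0.09, BECN1 by 0.22 ± 0.07, and WIPI1 by 0.19 ± 0.07, the last with an adjusted p of 0.0457 that rose above 0.05 in 14 of 18 fits that left out 1 library. GABARAPL1 was the one member lower, with a log2 difference of -0.51 ± 0.06 (adjusted p = 5.47e-06). NBR1 (0.12, adjusted p = 0.06, and 0.0245 with the replicate block), TFEB (0.13, adjusted p = 0.276), and ATG9A (0.04, adjusted p = 0.61) were not called. With the block 8 members were called, and 7679 of 14052 genes. With plain library totals in place of TMM, the differences of GABARAPL2 (0.13, adjusted p = 0.176), BECN1 (0.07, adjusted p = 0.471), and WIPI1 (0.03, adjusted p = 0.733) were not called.

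In 0 of 10 members did all 6 lipogenesis-inhibitor libraries lie on one side of the other 12. The share was 7.06% over all genes, so this count was near that of genes in general. Bleomycin TIS cells had SQSTM1 and ULK1 levels that overlapped with ND-646, and alisertib, doxorubicin, and palbociclib TIS cells were lower in ULK1. SQSTM1 in TVB-3166 (919.7 to 930.2 CPM) lay below every bleomycin library (1079 to 1443 CPM) and overlapped with doxorubicin (897.9 to 950.9 CPM). MAP1LC3B in bleomycin (154.2 to 202.9 CPM) overlapped with TVB-3166 (167.1 to 195.2 CPM) and ND-646 (182.6 to 306.9 CPM). GABARAPL1 was lower in the lipogenesis inhibitors than in bleomycin, doxorubicin, and palbociclib TIS cells in every library, but alisertib libraries were lower still (28.7 to 36.3 CPM against 37.4 to 41.5 CPM). CD68, the one marker of other cell types with a large change, was also higher in the lipogenesis inhibitors than in the other drugs (log2 difference 1.57), and its part in these differences was not tested.

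**Figure D3:**
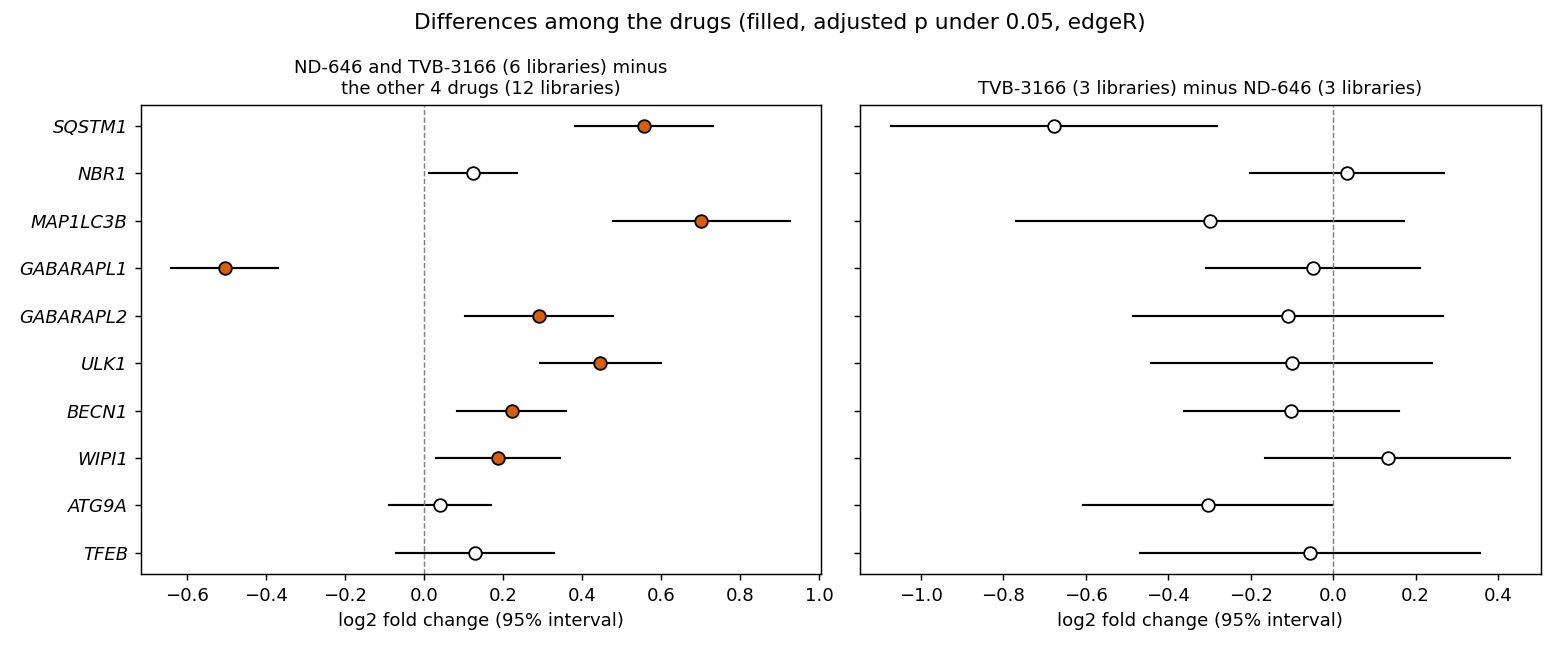
Log2 differences with 95% intervals for each member, between the lipogenesis inhibitors and the other 4 drugs on the left and between TVB-3166 and ND-646 on the right, with filled points for an adjusted p under 0.05. On the left 6 points are filled above 0 and GABARAPL1 is filled below it, while the points on the right are all open.

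Other autophagy genes were examined in 9 lists. Of the 8 other cargo receptors, 6 were higher against untreated day-0 cells in ND-646 (19.1% of all genes), TVB-3166 (27.4%), and bleomycin TIS cells (24.1%), 4 in doxorubicin (23.7%) and palbociclib (26%), and 2 in alisertib (17.7%), and 0 were lower in these 6 drugs. Against untreated day-7 cells the counts were 6, 6, 7, 4, 4, and 2 in the same order. The shares of all genes higher there were 17.2%, 25.4%, 22.4%, 21.9%, 22%, and 9.55%. The median log2 fold-change of these 8 genes was 0.71 with ND-646 and 0.69 with TVB-3166, beside 0.02 and -0.01 over all genes tested. OPTN, a receptor for mitochondria and bacteria, rose in all 6 drugs, from 0.77 in alisertib to 1.89 in bleomycin on the log2 scale. CALCOCO1, an endoplasmic reticulum and Golgi receptor, also rose in all 6, from 1.03 in doxorubicin to 1.88 in palbociclib. Against untreated day-7 cells OPTN was again higher in 6 of 6, and CALCOCO1 in 4 of 6, with 0.61 in alisertib (adjusted p = 0.059) and 0.42 in doxorubicin (adjusted p = 0.0679). CALCOCO2 (NDP52) rose in ND-646 (0.79), TVB-3166 (0.76), and bleomycin TIS cells (0.36), and was higher in the lipogenesis inhibitors than in the other drugs (0.58, adjusted p = 3.9e-06). STBD1, a glycogen-binding receptor, rose in ND-646 (1.70), bleomycin (1.30), TVB-3166 (1.2), and doxorubicin TIS cells (0.88).

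Of the remaining ATG8 genes, 3 were tested against untreated day-0 cells in ND-646, TVB-3166, and bleomycin, and 2 in the other drugs. The number higher was 1 in ND-646 (19.1% of all genes), 3 in TVB-3166 (27.4%), and 1 in bleomycin TIS cells (24.1%). It was 1 in palbociclib (26%) and 0 in doxorubicin (23.7%) and alisertib (17.7%), and 1 was lower in alisertib (19.6%). GABARAP rose in ND-646 (0.86 on the log2 scale), bleomycin (0.42), and TVB-3166 (0.34) and fell in alisertib TIS cells (-0.33) against untreated day-0 cells. Against untreated day-7 cells the alisertib value did not pass (adjusted p = 0.167). MAP1LC3A rose in palbociclib (0.78) and TVB-3166 (0.62), and against day-7 cells it was higher in palbociclib (0.52) and lower in doxorubicin (-0.49). MAP1LC3B2, whose reads may be shared with MAP1LC3B, was called higher in TVB-3166 TIS cells (1.24) at a group mean of 0.484 CPM. MAP1LC3C and GABARAPL3 have no row in the table.

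Receptors for organelles changed in both directions. RETREG1 (FAM134B), a receptor of the endoplasmic reticulum, rose in all 6 drugs, most in ND-646 (1.73 on the log2 scale) and TVB-3166 (1.35), and BNIP3L (NIX), a mitochondrial receptor, also rose in all 6, from 0.44 in alisertib to 1.11 in ND-646. RETREG1 was at 0.61 in untreated day-7 cells without drug, and against these cells it was higher in ND-646 (1.14) and TVB-3166 (0.75), while the values of 0.02 in bleomycin, 0.19 in alisertib, 0.28 in doxorubicin, and 0.44 in palbociclib (adjusted p = 0.0569) did not pass. BNIP3L was higher in 5 of 6 against day-7 cells, with 0.40 in alisertib (adjusted p = 0.0569). CCPG1 rose in 5 of 6, with 0.15 in alisertib (adjusted p = 0.23). TEX264, likewise a receptor of the endoplasmic reticulum, fell in 5 of 6, by -0.84 in palbociclib, with -0.21 in ND-646 (adjusted p = 0.43), and in 3 of 6 against day-7 cells (bleomycin, doxorubicin, and palbociclib). Of the 13 genes of this list, 4 were higher and 0 lower in ND-646 (19.1% and 18.8% of all genes), and 4 were higher and 5 lower in doxorubicin TIS cells (23.7% and 24.8%) against day-0 cells.

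Partners of ULK1 and BECN1 in initiation and nucleation were examined next. RB1CC1 (FIP200), the scaffold of the ULK1 complex, rose in all 6 drugs, from 0.36 in alisertib to 1.38 in bleomycin on the log2 scale, whereas the values of ATG101, from -0.36 in palbociclib to 0.39 in ND-646, did not pass. Against day-7 cells RB1CC1 was higher in 5 of 6, with 0.19 in alisertib (adjusted p = 0.221). ULK2 was higher than at day 0 in TVB-3166 (0.65) and alisertib TIS cells (0.67), and it was at 0.61 in untreated day-7 cells. Against these it was at 0.05 in TVB-3166 (adjusted p = 0.839) and did not pass in alisertib (adjusted p = 0.763), and it was lower in doxorubicin (-0.76) and palbociclib (-0.84). In the class III PI3 kinase complex, which contains BECN1, 1 of 8 other genes was higher in ND-646 (19.1% of all genes), and 3 of 8 were higher and 1 lower in palbociclib TIS cells (26% and 27.2%). There ATG14 was at 0.63, PIK3C3, the catalytic subunit, at 0.41, and RUBCN, an inhibitor of the complex, at -0.38. Against day-7 cells ATG14 was higher in palbociclib (0.77), PIK3C3 was at 0.33 (adjusted p = 0.0511), and RUBCN did not pass (adjusted p = 0.923), while RUBCN was higher in ND-646 (0.66), TVB-3166 (0.56), bleomycin (0.45), and doxorubicin TIS cells (0.37).

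Among genes of membrane supply, ATG9B, the paralog of ATG9A, rose in all 6 drugs, from 2.2 in alisertib to 3.44 in TVB-3166 on the log2 scale, from 0.284 ± 0.166 CPM in untreated day-0 cells (SD, n = 3) to between 1.34 ± 0.832 and 3.21 ± 1.51 CPM. It is a gene of few counts, and the untreated day-7 cells were at 0.648 ± 0.171 CPM. Against these it was higher in 4 of 6, with ND-646 (adjusted p = 0.079) and alisertib (adjusted p = 0.133) not passing. TMEM41B, a lipid scramblase, rose in 5 of 6 (1.60 in ND-646 and 1.5 in TVB-3166), with 0.70 in bleomycin (adjusted p = 0.051), and against day-7 cells in 3 of 6 (ND-646, TVB-3166, and palbociclib). WDR45 (WIPI4) rose in 4 of 6, and WIPI2 in bleomycin, doxorubicin, and palbociclib TIS cells, while against day-7 cells WIPI2 was higher in 6 of 6.

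Conjugation and fusion genes had calls in both directions. ATG3, the E2-like enzyme that attaches ATG8 proteins to lipid, fell in all 6 drugs, from -0.65 in bleomycin to -0.90 in palbociclib on the log2 scale, and in 5 of 6 against day-7 cells, with -0.41 in ND-646 (adjusted p = 0.0769). ATG16L1 rose in TVB-3166 (0.73), alisertib (0.37), and palbociclib TIS cells (0.27). Of 11 conjugation enzymes, 0 were higher and 2 lower in ND-646 (19.1% and 18.8% of all genes), and 2 were higher and 2 lower in TVB-3166 TIS cells (27.4% and 27.7%). VPS16, a subunit of the HOPS tethering complex, fell in all 6 drugs against day-0 cells (from -0.35 in alisertib to -0.74 in palbociclib). Against day-7 cells it was lower in 3 of 6 (bleomycin, doxorubicin, and palbociclib), with -0.30 in ND-646 (adjusted p = 0.078), -0.19 in TVB-3166 (adjusted p = 0.0631), and -0.11 in alisertib (adjusted p = 0.343). EPG5, a tethering factor, rose in TVB-3166 (0.61), bleomycin (0.60), and doxorubicin TIS cells (0.59).

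Around TFEB, 4 of 21 relatives and mTORC1 regulators tested were higher and 2 lower in ND-646 (19.1% and 18.8% of all genes), and 6 were higher and 5 lower in TVB-3166 TIS cells (27.4% and 27.7%), so the counts of higher genes were near the share over all genes. RRAGD, a Rag GTPase of mTORC1 signalling and itself a known TFEB target, rose in ND-646 (1.94 on the log2 scale), bleomycin (1.40), TVB-3166 (1.19), palbociclib (0.69), and alisertib (0.51), with 0.33 in doxorubicin (adjusted p = 0.068), and in 4 of 6 against day-7 cells, without alisertib (adjusted p = 0.17) or doxorubicin (0.01, adjusted p = 0.972). DEPTOR, an mTOR inhibitor, rose in all 6, from 0.42 in doxorubicin to 1.42 in ND-646, and 5 of 6 against day-7 cells, with 0.29 in doxorubicin (adjusted p = 0.181). MITF, a relative of TFEB, fell in ND-646 (-0.94) and TVB-3166 (-0.76) and was lower in the lipogenesis inhibitors than in the other drugs (-0.83, adjusted p = 0.00028). Against untreated day-7 cells the MITF values of -0.54 in ND-646 (adjusted p = 0.171) and -0.37 in TVB-3166 (adjusted p = 0.114) did not pass. FNIP1 rose in TVB-3166 (1.11), doxorubicin (0.85), and palbociclib TIS cells (0.69). In untreated day-7 against day-0 cells edgeR called 0 of 89 tested genes of these 9 lists and 0.587% of all genes. DESeq2 called 10 of these list genes and 8.3% of all genes. In edgeR's test 26 list genes had a raw p under 0.05, and the share of all genes at that raw p is not given here.

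**Figure D4:**
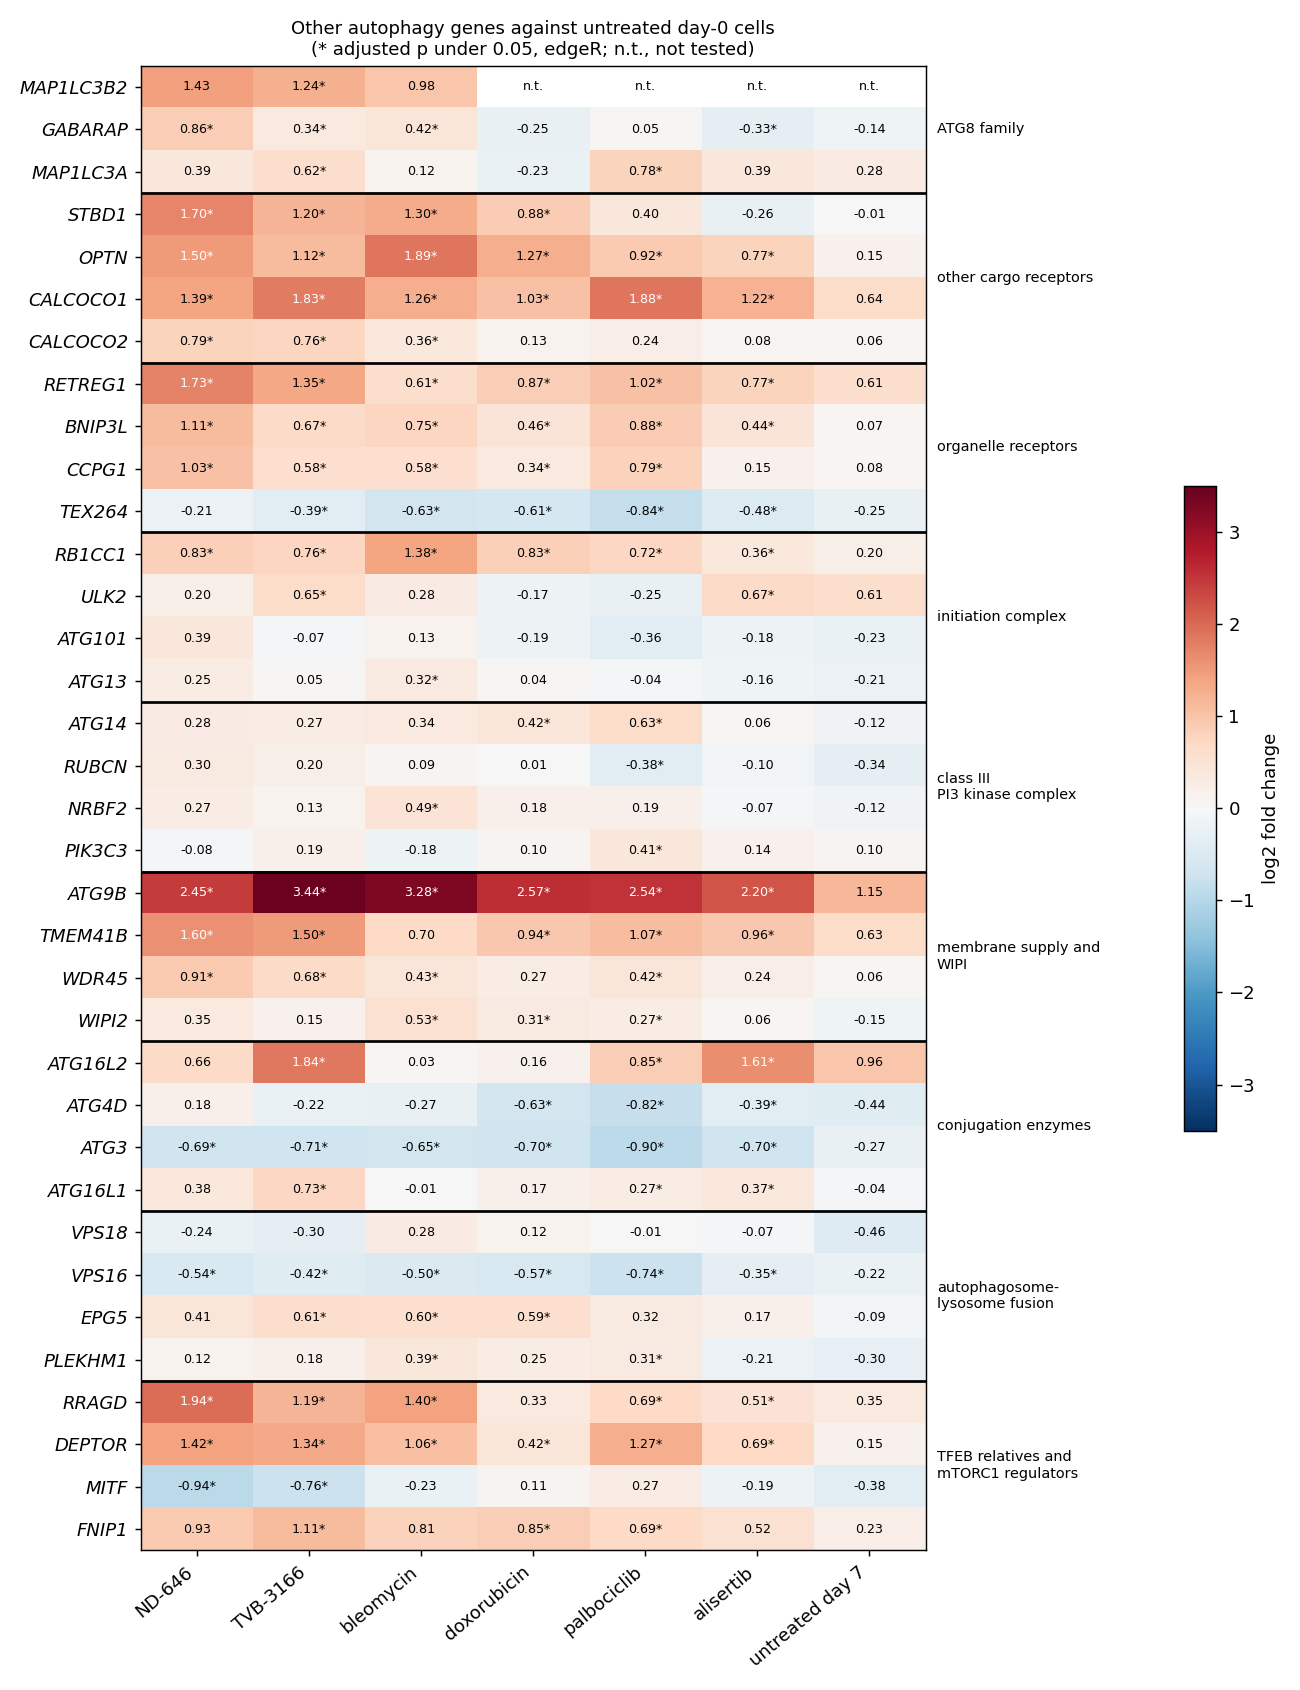
Log2 fold-changes against untreated day-0 cells of the genes with the largest range of group means in each list, up to 4 a list, with asterisks for an adjusted p under 0.05 and lines between lists. ATG9B, OPTN, CALCOCO1, RETREG1, BNIP3L, RB1CC1, and DEPTOR hold 6 asterisks with positive values, and ATG3 and VPS16 hold 6 with negative values.

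Over the 24 libraries, the genes whose log2 CPM followed each member most closely were sought among 12608 genes, as a description of shared group patterns. NBR1 was closest to TAX1BP1 (Pearson r = 0.97), which is also a cargo receptor, SQSTM1 to LHFPL2 (0.96) and STX3 (0.96), ULK1 to PRSS22 (0.97), MAP1LC3B to PRSS8 (0.97), and GABARAPL1 to TCIM (0.98). WIPI1 was closest to DEPTOR (0.84), and TFEB to CFL1 (0.91). Among the members, MAP1LC3B and ULK1 had the highest correlation (0.93), followed by SQSTM1 and ULK1 (0.91), and TFEB was negatively correlated with 8 of the other 9, most with GABARAPL1 (-0.58). The libraries fall into 8 groups, so these values reflect differences between groups more than between libraries.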

How the data were processed

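RNA from 24 SKBR3 libraries (8 groups of 3, from the labels) was sequenced by the authors as paired-end reads, aligned to GRCh37 with HISAT2, and assembled with StringTie. The authors deposited whole-number read counts per gene, not normalized, and the counting settings and use of strand are not given in the sources used here. The library kit is a stranded one for total RNA in the methods but for mRNA in the labels. The table lists 14493 genes with a lowest count of 1, so no listed gene is at 0 in any library.

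The test was the 2-sided quasi-likelihood test of edgeR 4.0.16 (R 4.3.3) after filterByExpr and TMM, with only the groups compared in each fit, and Benjamini-Hochberg adjustment ran over all genes tested. Levels are CPM with TMM factors and the SD of 3 libraries, log2 CPM used a prior count of 2, and intervals are 95%. With 3 libraries against 3 an exact permutation test cannot go below p = 0.1, so p-values come from the model across genes. At these depths the spread between libraries, not counting error, sets the precision. Summed exon lengths, positions, and overlaps are from the GENCODE annotation of GRCh37, and 10 of 10 members were matched to RefSeq start-site windows of GRCh38.p14.

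The 10 members and the gene lists were chosen with earlier results of these data known. From each list the genes named are up to 4 with the largest range of group means of log2 CPM, and the 2 most like genes of each member were sought among genes with a mean of at least 1 CPM. Same-numbered libraries deviated together (every r over 0.1) in alisertib and untreated day-7 against day-0 cells, in ND-646, bleomycin, alisertib, and doxorubicin against day-7 cells, and in TVB-3166 against ND-646, and there the replicate number was taken to pair them. The reported calls and shares nevertheless came from fits without that block, unless the block is named. Between pairs of drug groups, 38 of 45 such correlations were over 0.1. Alternatives were RLE factors, DESeq2 1.42.0, a single fit of all 24 libraries, a minimum of 10 counts per library, no filter, the replicate block, a fold-change rule, leaving out each library, and, added after the data were seen, plain library totals. In simulated counts for ND-646 against day-0 cells (13661 genes tested), 200 genes were changed. There edgeR recovered 47 of 97 changes of 1 (48.5%) and 93 of 103 changes of 2 (90.3%) on the log2 scale. It made 0 calls in the wrong direction and 15 false calls. The data themselves had 5157 of 13604 genes called in this comparison, so the simulated rates need not hold for them.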

Additional observations from a re-analysis of the deposited data

How the results depend on the processing

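Of 120 counts of changed members under alternatives that kept all libraries, 99 stayed within 1.5 times the reported count. The rule of a fold-change of at least 2 with a raw p under 0.05 gave the lowest counts. Against untreated day-0 cells it left 4 members in ND-646, 4 in TVB-3166, 4 in bleomycin, 0 in alisertib, 2 in doxorubicin, and 2 in palbociclib, and against day-7 cells 3, 3, 4, 0, 2, and 1 in the same order. Of all genes tested against day-7 cells, the rule passed 2379 of 13704 in ND-646, 1839 of 13748 in TVB-3166, and 1952 of 13802 in bleomycin. It passed 451 of 13795 in alisertib, 1214 of 13850 in doxorubicin, and 1547 of 13788 in palbociclib. The rule left 0 members between the lipogenesis inhibitors and the other drugs, where it passed 1003 of 14052 genes. Between untreated day-7 and day-0 cells, DESeq2 called 2 members (8.3% of all genes) and the replicate block 2 (9.26%). The fit of all 24 libraries called 1 there, and 441 of 14078 genes. In ND-646 against day-7 cells, plain library totals called 3 members instead of 7, and 4943 of 13704 genes. In the lipogenesis inhibitors against the other drugs plain totals called 4 members instead of 7, and 7141 of 14052 genes. Relative to TMM, plain totals moved the median log2 fold-change of all genes by between -0.22 (ND-646 against day-7 cells) and 0.14 (alisertib against day-0 cells), and the cause was not tested. In alisertib against day-7 cells the fit of all libraries called 2 members instead of 5, and 1141 of 14078 genes. In TVB-3166 against ND-646, DESeq2 and the fit of all libraries each called 1, SQSTM1, beside 5.6% of all genes and 1268 of 14078 genes.

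With 1 library left out, the count for ND-646 ran from 5 to 8 against day-0 cells (5 without untreated day-0 replicate 2 or replicate 3) and from 3 to 8 against day-7 cells (3 without untreated day-7 replicate 1, and 4 without replicate 3 or without ND-646 replicate 2). For alisertib against day-7 cells it ran from 2 to 5 (2 without untreated day-7 replicate 3, and 3 without replicate 1 or without alisertib replicate 2), and for TVB-3166 against ND-646 from 0 to 1 (1 without ND-646 replicate 1). Fewer libraries enter each of these fits, and the share of all genes called in them is not given here. A drop in these counts can therefore not be told apart from a drop over all genes. Of 92 member calls, 18 were lost in at least 1 such fit, and none of the calls changed direction under any alternative run. The SQSTM1 and ULK1 calls against both references were kept in 156 of 156 alternative fits each, the fold-change rule aside, and those of MAP1LC3B in 151 of 156. The replicate block changed 11 of 150 member calls, of which 3 were lost and 8 gained. Beyond those given beside the results, it ended the BECN1 call in ND-646 (adjusted p = 0.0542) and gained GABARAPL2 in bleomycin (adjusted p = 0.0286) and BECN1 in doxorubicin (adjusted p = 0.0341), all against day-0 cells. In these comparisons not every r was over 0.1, so the replicate number was not taken to pair the libraries.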
